A study of Rattus norvegicus with 12 samples.

Results

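The cytosolic ribosomal protein genes of the rat kidney were taken from the table of all genes by name. Every protein-coding entry whose symbol begins with Rpl or Rps and a digit, or reads Rplp0, Rplp1 or Rplp2, was a member, and the S6 kinase genes (Rps6k) were left out. The rule found 128 entries among 20455 genes with at least 1 read. Of these, 70 carry a plain ribosomal protein name and 37 a name ending in ps and a number. That ending is used for pseudogenes, though the annotation lists these entries as protein-coding. A numbered "like" name is carried by 12, and 1, Rps19bp1, codes for a protein that binds Rps19. Another 8 are paralogs of a ribosomal protein (Rpl3l, Rpl7l1, Rpl10l, Rpl22l1, Rpl36al, Rpl39l, Rps4y2 and Rps27l). Enough reads for a test were held by 97 entries. The other 31, of which 22 have a ps name, held at most 93 reads in the 12 libraries together, and 69 of the 70 plain names were tested.

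RNA was sequenced from rat kidney in 3 groups of 4 libraries. The CPB+Nitrite group had cardiopulmonary bypass, in which a machine takes over the work of heart and lungs, together with nitrite, an anion that the body can reduce to nitric oxide. The CPB group had bypass alone, and the sham group had a sham operation. The labels give no strain, age, dose, duration or time of sampling, and do not say that the 4 libraries of a group are separate animals, so the p-values measure only the spread between these samples, which may be technical.

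Ribosomal proteins assemble with ribosomal RNA into a small subunit, which decodes the mRNA, and a large subunit, which joins the amino acids. The stalk proteins Rplp0, Rplp1 and Rplp2 protrude from the large subunit and recruit the elongation factors. In mammals most ribosomal protein mRNAs begin with a C followed by an unbroken run of C and T letters, the terminal oligopyrimidine tract, through which the kinase complex mTORC1 and the RNA-binding protein Larp1 control their translation together.

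This letter pattern was looked for in the RefSeq start-site sequences of build GRCr8, which hold 250 bases before and 50 after each annotated start. Of the 128 entries 79 matched 72 RefSeq genes. A run of at least 8 letters, each C or T, lay within 20 bases of the start or reached into that stretch in 53 of the 72 genes (73.6%), against 20.9% of all 27457 start-site sequences read the same way. On the other strand the shares were 9.72% and 22.3%. The letters CCGGAAG, on either strand and anywhere in the 300 bases, were found in 27.8% of the 72 genes and 9.22% of all sequences, and TATAAA, on either strand before the start, in 12.5% and 13.1%. A match is a string of letters and not a measured site. The windows below run from 30 bases before to 30 after the annotated start, with the longest C or T run of at least 8 letters in capitals. They are shown for the 8 matched members that passed the test in CPB against sham, and for Rps6, Rplp0, Rps19 and Rps27, described below. Rpl9-ps30 carries the gene identifier of RefSeq Rpl9.
Rps23, chr2:23814487-23814546, plus strand: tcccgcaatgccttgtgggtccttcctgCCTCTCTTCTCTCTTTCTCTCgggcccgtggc
Rps4x, chrX:71342892-71342951, minus strand: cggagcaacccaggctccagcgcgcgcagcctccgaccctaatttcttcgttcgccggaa
Rpl22, chr5:168117931-168117990, plus strand: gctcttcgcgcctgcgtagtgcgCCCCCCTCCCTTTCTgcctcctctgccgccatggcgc
Rpl37, chr2:55942915-55942974, plus strand: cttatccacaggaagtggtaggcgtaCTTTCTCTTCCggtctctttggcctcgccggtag
Rpl35a, chr11:81234992-81235051, minus strand: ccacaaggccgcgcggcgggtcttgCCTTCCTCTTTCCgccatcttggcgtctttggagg
Rpl9, chr14:43247560-43247619, plus strand: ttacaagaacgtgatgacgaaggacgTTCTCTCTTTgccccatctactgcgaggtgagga
Rps27l, chr8:76443628-76443687, plus strand: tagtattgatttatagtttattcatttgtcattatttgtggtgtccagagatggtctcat
Rpl7l1, chr9:21695688-21695747, plus strand: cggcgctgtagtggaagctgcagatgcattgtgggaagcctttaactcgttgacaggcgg
Rps6, chr5:106420511-106420570, minus strand: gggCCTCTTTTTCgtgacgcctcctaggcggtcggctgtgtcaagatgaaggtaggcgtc
Rplp0, chr12:46718361-46718420, minus strand: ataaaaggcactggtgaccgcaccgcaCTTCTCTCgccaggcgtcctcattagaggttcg
Rps19, chr1:89608658-89608717, plus strand: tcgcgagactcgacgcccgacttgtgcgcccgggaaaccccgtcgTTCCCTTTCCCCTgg
Rps27, chr2:177964577-177964636, minus strand: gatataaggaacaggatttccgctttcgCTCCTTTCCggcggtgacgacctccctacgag
Of the 8 matched members that passed the test, 5 had such a run. The 3 without it were Rps4x, Rps27l and Rpl7l1. In Rps23 the run was 21 letters long and crossed the annotated start. In Rps27l, a paralog of Rps27, the longest run within 20 bases of the start, or reaching into that stretch, was 3 letters, against 9 in Rps27. The runs of Rps6 and Rps19 lay some bases to the side of the annotated start.

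The libraries held between 16837055 and 25776044 reads. Markers of the kidney were present in each library: the summed level of 8 of 8 proximal tubule markers ran from 3904 to 4646 CPM, the usual read counts scaled to a common library total, in CPB+Nitrite, from 3559 to 4440 CPM in CPB and from 5482 to 6779 CPM in sham. The library CPB+Nitrite 2 stood apart from the other 11. Its summed level of 4 of 5 loop and distal tubule markers was 564 CPM, against 4709 to 8438 CPM in the other CPB+Nitrite libraries. Its 6 endothelial markers summed to 2124 CPM and its 4 erythroid markers to 8141 CPM, against at most 271 and 641 CPM in the other CPB+Nitrite libraries, with no listed marker at 0 in all libraries. The endothelial sum reached 143 CPM in CPB and 288 CPM in sham, and the erythroid sum 4046 CPM in CPB and 1727 CPM in sham. Its 6 collecting duct and 5 podocyte markers, at 4089 and 810 CPM, were also the highest of the 12 libraries. The mean share of reads and the members' median changes in the comparisons with CPB+Nitrite are given with and without this library. Other values include it unless stated, and many may depend on it.

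Reads of the 128 entries made up 2.12, 3.38, 1.72 and 1.96% of all reads in the 4 CPB+Nitrite libraries, 2.41, 1.78, 2.05 and 1.76% in the CPB libraries and 2.01, 1.97, 1.80 and 1.38% in the sham libraries. CPB+Nitrite 2 had the highest share and sham 4 the lowest, and the 3 groups overlapped. The mean share was 2.30 ± 0.743% in CPB+Nitrite, 1.999 ± 0.302% in CPB and 1.79 ± 0.287% in sham (SD, n = 4 each). Without CPB+Nitrite 2 the mean of that group was 1.93%. These are raw reads over raw totals, in which fewer cells of a type and less RNA per cell cannot be told apart.

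**Figure D1:**
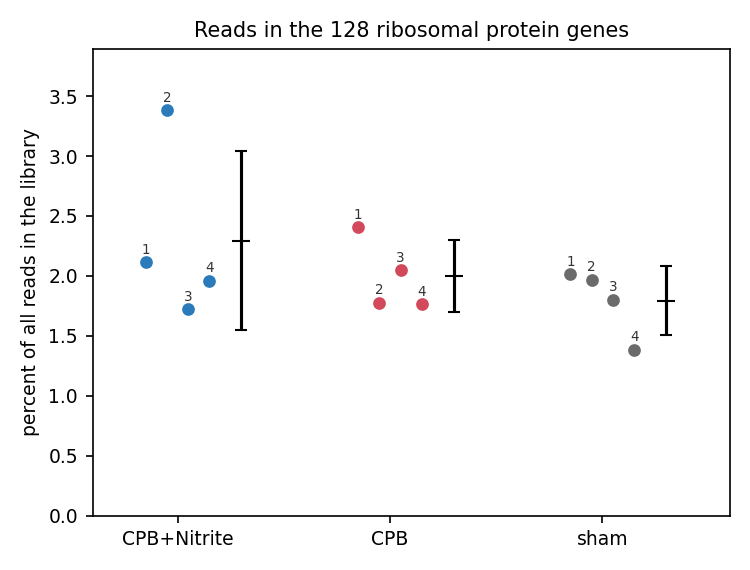
Percent of all reads of a library that fell on the 128 ribosomal protein genes (vertical axis), by group. Each point is a library with its replicate number, and the bars beside them give mean ± SD (n = 4). CPB+Nitrite 2, at 3.38%, and sham 4, at 1.38%, are the highest and lowest libraries, and the groups overlap.

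The tested members moved up and down together from library to library. Relative to the sham mean (log2 CPM, median over the 97 members), they stood at 0.41, 0.96, 0.01 and 0.30 in CPB+Nitrite 1 to 4, at 0.56, 0.15, 0.47 and 0.26 in CPB 1 to 4 and at 0.18, 0.08, 0.12 and -0.37 in sham 1 to 4. In CPB+Nitrite 2, 96 of the 97 members lay above the sham mean, and in sham 4 only 3 did. The median over all 14664 genes tested stayed between -0.05 and 0.05 in each library. Over the 12 libraries, the correlation of a member with the mean of the others, among the 66 members with at least 20000 reads, had a median of 0.975. That value describes points that share libraries and their scaling. The lowest was 0.242, for Rpl7l1, and the next was 0.881, for Rpl10, which the large subunit gains in its last steps of assembly. In sham 4 the medians of mitochondrial ribosomal proteins and of oxidative phosphorylation genes were also low, at -0.27 and -0.28. Whether depth or RNA quality has a part in the low values of sham 4 was not tested.

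**Figure D2:**
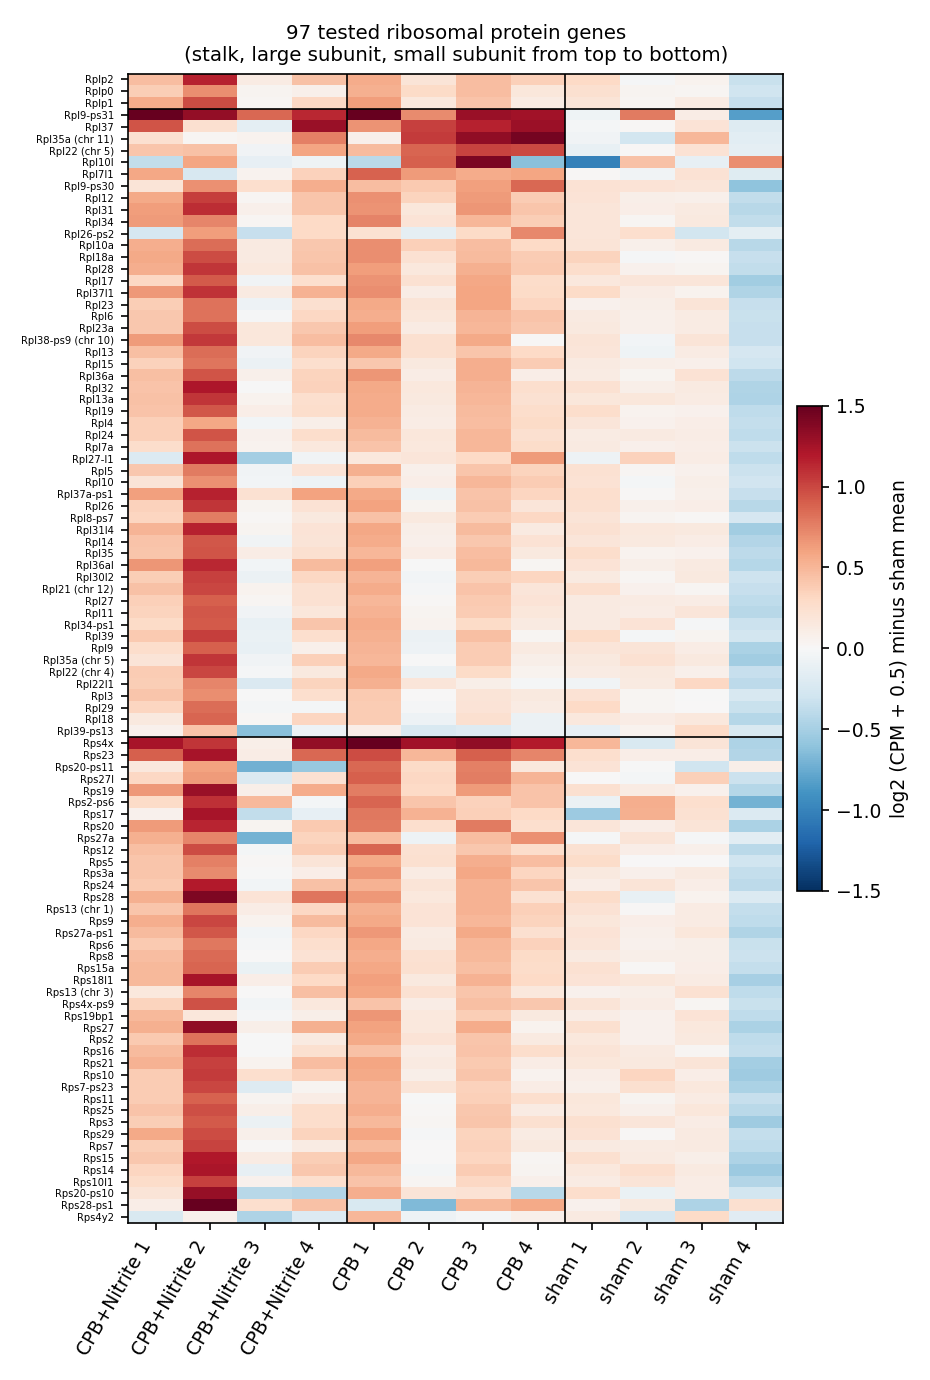
Log2 (CPM + 0.5) of the 97 tested ribosomal protein genes (rows) minus the mean of the 4 sham libraries, in the 12 libraries (columns: CPB+Nitrite, CPB, sham). Stalk, large subunit and small subunit genes run from top to bottom, each block ordered by its change in CPB against sham. Most rows share the column pattern, with CPB+Nitrite 2 the highest library and sham 4 the lowest.

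The first comparison asks what bypass did to these genes in the kidney. In CPB against sham kidneys nearly all ribosomal protein genes had a small positive change, and few passed the test. The median log2 change was 0.35 over the 97 members, against -0.05 over all genes tested, and 96 of 97 changes were positive, against 47.4% of all genes. The exception was Rpl39-ps13, an entry with a ps name at about 1 CPM, with -0.16. The test, edgeR's quasi-likelihood test with adjustment over all genes, called 9 members, all higher, where the background was 43.2% of all genes in either direction and 21.7% higher. In 22 members all 4 CPB libraries lay above all 4 sham libraries, against 23.5% of all genes. Neither count exceeds its background. At an unadjusted p under 0.05 there were 18 members, all higher, where 25.7% of all genes were higher at that threshold. With libraries scaled by total counts alone the members' median was 0.16 and that of all genes -0.24. DESeq2 called 13 members higher, where 21.8% of all genes were called higher. With only the 2 groups in the fit 41 members were called (28.8% of all genes higher), with limma voom 33 (29.7%), and without CPB+Nitrite 2 24 (25% of all genes). Without sham 4 the median was 0.24 and 5 members were called, where 18% of all genes were called higher. Summed markers of 4 of the listed cell types separated the CPB from the sham libraries, and those of the others overlapped. Of all 14664 genes tested 3441 lay wholly higher and 3632 wholly lower in CPB than in sham. Proximal tubule markers were lower in CPB, as given above. Collecting duct markers (6 of 6) stood at 780.2 to 1395 CPM in CPB and 1457 to 1972 CPM in sham, and macrophage markers (5 of 5) at 8.51 to 13.5 CPM in CPB and 20.7 to 45.6 CPM in sham. Neutrophil markers (5 of 5) stood at 10.98 to 22.3 CPM in CPB and 4.25 to 6.501 CPM in sham. The part of these cell types in the result was not tested.

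The 3 stalk genes kept close to the median. Rplp0, the base of the stalk, had 1061, 1326, 843 and 861 CPM in CPB+Nitrite, 1187, 1003, 1133 and 924 CPM in CPB and 967, 840.0, 833 and 666 CPM in sham libraries. The CPB libraries were high and the sham libraries low, but CPB 4 lay below sham 1. Its log2 change was 0.36 (SE 0.18, adjusted p = 0.124 by edgeR). Rplp1 and Rplp2, which sit on Rplp0 as pairs, had log2 changes of 0.34 and 0.38 (adjusted p = 0.205 and 0.151 by edgeR).

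Among 40 small subunit genes 3 passed the test, where 21.7% of all genes were called higher, and the median change was 0.38. Rps23 (2:22079302-22080918, plus strand, build mRatBN7.2), which lies at the decoding centre of the ribosome, had 321, 404, 185 and 312 CPM in CPB+Nitrite, 338, 243, 320.1 and 285 CPM in CPB and 204, 184, 183 and 126 CPM in sham libraries. All 4 CPB libraries were above all sham libraries, and CPB+Nitrite 3 lay among the sham values. The mean was 296 ± 41.9 CPM in CPB and 174 ± 33.6 CPM in sham (SD, n = 4 each), a log2 change of 0.76 (SE 0.23, adjusted p = 0.0175 by edgeR). The call was lost without sham 4 (0.64, adjusted p = 0.051) and with total counts (0.57, adjusted p = 0.059), and over 21 alternatives the adjusted p ran from 0.00207 to 0.059. Rps23 had the largest change among the 66 members with at least 20000 reads.

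Other well-known small subunit genes had the same direction and did not pass. Rps19, in which mutations cause Diamond-Blackfan anaemia in humans, had 182, 285, 123 and 171 CPM in CPB+Nitrite, 199, 142, 181 and 156 CPM in CPB and 137, 126, 122 and 86.1 CPM in sham libraries. Its CPB and sham libraries did not overlap, with CPB 2 near the highest sham value, and the log2 change was 0.53 (SE 0.23, adjusted p = 0.0853 by edgeR). Rps6, the target of the S6 kinases, averaged 495 ± 65.4 CPM in CPB and 379 ± 55.4 CPM in sham (SD, n = 4 each), a log2 change of 0.39 (adjusted p = 0.113 by edgeR). Rps3, at the mRNA entry channel, and Rps25 each had a log2 change of 0.27 (adjusted p = 0.351 and 0.295 by edgeR).

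Among 53 large subunit genes 6 passed, where 21.7% of all genes were called higher, and the median change was 0.34. Rpl5 and Rpl11, which in human and mouse cells bind the ubiquitin ligase Mdm2 when ribosome assembly is disturbed, did not pass. Rpl5 had 497, 644, 361 and 434 CPM in CPB+Nitrite, 544, 397, 501 and 472 CPM in CPB and 440.0, 384, 393 and 299.9 CPM in sham libraries, and CPB 2 lay below sham 1 (log2 change 0.34, adjusted p = 0.169 by edgeR). Rpl11 had 266, 403, 204 and 237 CPM in CPB+Nitrite, 303, 218, 275 and 238 CPM in CPB and 232, 228, 240.2 and 158 CPM in sham libraries (log2 change 0.27, adjusted p = 0.321 by edgeR). Sham 4 was the lowest library in both genes.

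Rpl7l1 and Rps27l, paralogs of different ribosomal proteins, were called higher in CPB against sham. Rpl7l1 (9:14198092-14206110, plus strand), which in human cells is part of precursors of the large subunit, had 152, 86.2, 105 and 129 CPM in CPB+Nitrite, 188, 159, 149.7 and 154 CPM in CPB and 103, 97.9, 119 and 89.5 CPM in sham libraries. All CPB libraries were above all sham libraries, and CPB+Nitrite 2, the highest library for most members, was the lowest of all for this gene. The log2 change in CPB was 0.67 (SE 0.17, adjusted p = 0.0099 by edgeR), and the call held in all 21 alternatives. Rps27l (8:67562483-67567418, plus strand), a paralog of the small subunit protein Rps27, had 24.8, 31.4, 17.2 and 23.4 CPM in CPB+Nitrite, 37.5, 24.8, 34.5 and 28.6 CPM in CPB and 19.999, 19.5, 25.7 and 15.9 CPM in sham libraries. CPB 2 lay below sham 3, and the log2 change was 0.63 (SE 0.21, adjusted p = 0.0283 by edgeR). This call was lost with total counts and without CPB 1, CPB 3, sham 1, sham 2 or sham 4, with adjusted p from 0.0599 to 0.103 in these 6 alternatives and from 0.00766 to 0.103 over all 21.

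Set against its partner, Rps27l stood at 27.0, 19.6, 25.6 and 25.6 reads per 100 Rps27 reads in CPB+Nitrite, 38.9, 35.3, 37.1 and 43.8 in CPB and 26.7, 29.5, 36.2 and 34.96 in sham libraries. CPB 2 lay below sham 3, and all 4 CPB+Nitrite libraries lay below all 4 CPB libraries. The ratio has no test here and uses reads not divided by transcript length. In CPB+Nitrite against CPB 6.27% of all genes lay wholly lower. Neither Rps27l nor Rps27 was called in that comparison (adjusted p = 0.239 and 0.373 by edgeR). Rps27 itself, a zinc-finger protein of the small subunit, had a log2 change of 0.34 in CPB against sham (adjusted p = 0.286 by edgeR). Rpl22l1 stood at 26.4 ± 2.83 reads per 100 Rpl22 reads in CPB+Nitrite, 25.2 ± 3.48 in CPB and 27.7 ± 3.18 in sham, and Rpl36al at 78.8 ± 7.997 reads per 100 Rpl36a reads in CPB+Nitrite, 69.5 ± 1.43 in CPB and 72.8 ± 3.73 in sham (SD, n = 4 each). In both pairs the group ranges overlapped between CPB and sham. Rpl7l1 stood at 196 to 298 reads per 100 Rpl7 reads in CPB and 170.2 to 221 in sham, which also overlapped. Of these Rpl7 reads 99.9% fell on an entry outside the name rule. Rps4y2 stood at 1.79 to 2.54 reads per 100 Rps4x reads in CPB+Nitrite, 2.37 to 3.498 in CPB and 2.58 to 4.02 in sham. All CPB+Nitrite libraries thus lay below all sham libraries, as did the levels of 861 of all 14664 genes. The level of Rps4y2 in CPB+Nitrite against sham changed by -0.22 (adjusted p = 0.482 by edgeR). In CPB against sham Rps4y2 had a log2 change of 0.12 (adjusted p = 0.631 by edgeR), and Rpl10l, with 205 reads in all, of 0.69 (adjusted p = 0.518 by edgeR). Rpl3l and Rpl39l were not tested.

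**Figure D3:**
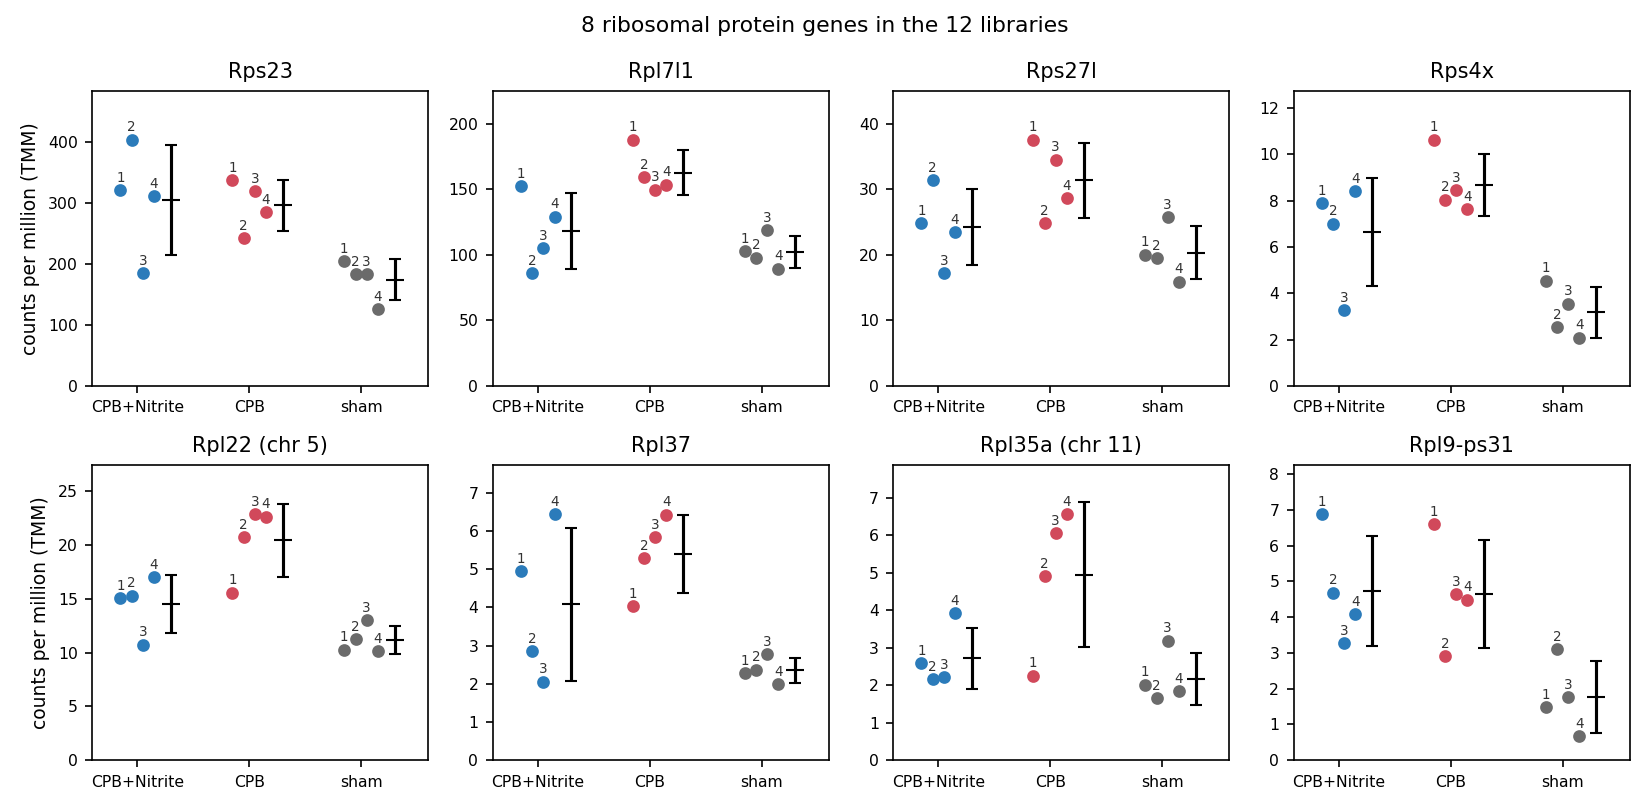
CPM (vertical axis, from 0, scaled by edgeR's TMM factors) of 8 of the 9 members called in CPB against sham, by group. Points are libraries with their replicate number and bars give mean ± SD (n = 4). Rps23, Rpl7l1, Rps4x, Rpl22 (chr 5) and Rpl37 show no overlap between CPB and sham, while Rps27l, Rpl35a (chr 11) and Rpl9-ps31 do.

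The other 6 called members are entries of proteins that have several entries in the table, matched by name or gene identifier. The authors' counting split the reads of such a protein between the entries in a way the files do not describe, so the values of a single entry are uncertain. Rps4x on chromosome X had 7.90, 6.998, 3.28 and 8.40 CPM in CPB+Nitrite, 10.6, 8.04, 8.44 and 7.64 CPM in CPB and 4.54, 2.53, 3.56 and 2.08 CPM in sham libraries, with no overlap between CPB and sham (log2 change 1.45, SE 0.32, adjusted p = 0.00448 by edgeR). It held 1.51% of the reads of this protein, and Rps4x-ps9, an entry of 929 bases on chromosome 4, held 98.5% and had a log2 change of 0.34 (SE 0.21, adjusted p = 0.198 by edgeR). In reads, the Rps4x entry had 269, 149, 149 and 114 in CPB and 122, 63, 87 and 43 in sham libraries.

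Rpl22, which also binds other RNAs, showed the same split. Its entry on chromosome 5 (162833740-162843368) had 15.04, 15.3, 10.7 and 17.0 CPM in CPB+Nitrite, 15.6, 20.7, 22.9 and 22.6 CPM in CPB and 10.3, 11.3, 13.0 and 10.1 CPM in sham libraries, with no overlap between CPB and sham (log2 change 0.87, SE 0.18, adjusted p = 0.00376 by edgeR). The entry of 547 bases on chromosome 4 held 83.7% of the protein's reads and had a log2 change of 0.22 (SE 0.22, adjusted p = 0.444 by edgeR). The chromosome 5 entry took 15.1% of Rpl22 reads on average in CPB+Nitrite, 22.1% in CPB and 14.97% in sham libraries. In this share CPB and sham overlapped. CPB 1, with 394 reads against 2391 on chromosome 4, lay below sham 4, with 209 against 1032.

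For the large subunit proteins Rpl37, Rpl35a and Rpl9 the called entries also held few of the reads. Rpl37 on chromosome 2 held 3.49% of its protein's reads and rose by 1.19 on the log2 scale (SE 0.33, adjusted p = 0.0137 by edgeR), with 4.03 to 6.43 CPM in CPB and 1.98 to 2.78 CPM in sham libraries. Rpl37l1, with 96.3%, had a log2 change of 0.42 (adjusted p = 0.131 by edgeR). Rpl35a on chromosome 11 held 3.33% and rose by 1.18 (SE 0.36, adjusted p = 0.0202 by edgeR), with 2.25, 4.91, 6.06 and 6.56 CPM in CPB and 2.01, 1.65, 3.19 and 1.84 CPM in sham libraries. CPB 1 lay among the sham values, and the call was lost without CPB 3, CPB 4, sham 2 or sham 4 (adjusted p from 0.0522 to 0.0613; 0.0024 to 0.0613 over all 21 alternatives). Rpl9-ps31 rose by 1.40 (SE 0.42, adjusted p = 0.0176 by edgeR), with 2.91 to 6.60 CPM in CPB and 0.677 to 3.10 CPM in sham libraries, and lost the call without CPB 1 (1.19, adjusted p = 0.0503). Rpl9-ps30 rose by 0.57 (SE 0.22, adjusted p = 0.0476 by edgeR) and was named after its values were seen, as the last of the 9 called members.

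Looked at after these values were seen, 12 tested members span at least 1000 bases in the annotation while another entry holds more of the protein's reads. In 9 of the 12 the entry with most reads spans under 1000 bases. Of the 12, 5 were called (Rps4x, Rpl22, Rpl37, Rpl35a and Rpl9-ps30), where 21.7% of all genes were called higher, and of the 12 entries with most reads none was called. Counted over all entries of ribosomal proteins, members or not, 18 met the same description and the same number, 5, were called. The smaller entry had the larger change in 7 of 12 pairs. When all entries of a protein were added up before the fit, an alternative chosen after seeing the data, 81 proteins and paralogs were tested, all 81 had a positive change with a median of 0.34, and 3 were called, where 21.8% of all genes were called higher in that fit. These were Rps23 (0.77, adjusted p = 0.0174 by edgeR), Rpl7l1 and Rps27l. Summed this way, Rps4x had a log2 change of 0.36 and Rpl22 of 0.34 (adjusted p = 0.176 and 0.177 by edgeR).

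**Figure D4:**
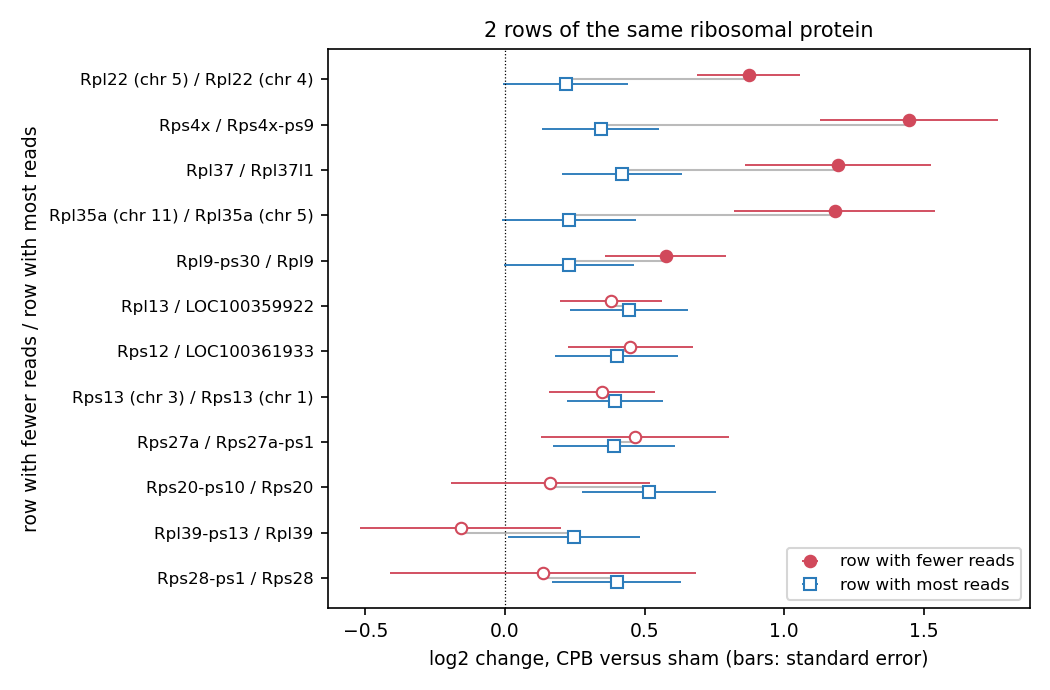
Log2 change in CPB against sham (horizontal axis, bars are standard errors) of 12 ribosomal protein entries that span at least 1000 bases (circles, filled where called) and of the entry of the same protein with most reads (squares, none called). The 5 called entries lie to the right of their partners, and the other 7 pairs lie on either side.

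The groups can also be read against genes that act with the ribosome. In CPB against sham, the ribosomal protein genes Rpsa, Rack1 and Fau, which lie outside the name rule, had log2 changes from 0.22 to 0.42 and none passed. Of 5 tested elongation factors 3 were higher (Eef2, Eef1b2 and Eif5a), of 13 eIF3 subunits 7 were higher, and of 19 other initiation factors 12 were higher, with none lower in any of the 3 lists, against the background of 21.7% of all genes called higher. Eif6, which keeps the subunits apart until the large subunit is mature, had 255, 139, 139.9 and 263 CPM in CPB+Nitrite, 321, 277, 291 and 297 CPM in CPB and 142, 119.8, 150.5 and 108 CPM in sham libraries, with no overlap between CPB and sham (log2 change 1.19, SE 0.22, adjusted p = 0.00218 by edgeR). Of 6 other mRNAs known to start with an oligopyrimidine tract, Pabpc1 (1.19, adjusted p = 0.00107 by edgeR) and Npm1 (1.01, adjusted p = 0.00177 by edgeR) rose, and Tpt1, Hnrnpa1, Btf3 and Naca had changes from 0.19 to 0.52 that did not pass. Of 6 chaperones that escort single ribosomal proteins only Tsr2, the escort of Rps26, rose (0.38, adjusted p = 0.0312 by edgeR).

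Of 22 genes of the mTORC1 pathway 4 were higher and 5 lower in CPB against sham, near the background of 21.7% of all genes higher and 21.5% lower. Eif4ebp1, a repressor of cap-dependent translation that mTORC1 inactivates, had 25.82, 10.9, 12.001 and 21.5 CPM in CPB+Nitrite, 22.8, 31.5, 37.8 and 39.5 CPM in CPB and 8.60, 4.67, 8.22 and 5.12 CPM in sham libraries. All CPB and all CPB+Nitrite libraries lay above all sham libraries, and the log2 change in CPB was 2.30 (SE 0.32, adjusted p = 0.00101 by edgeR). Larp1 rose by 1.04 (adjusted p = 0.003235 by edgeR), and Mtor itself fell by 0.52 on the log2 scale (adjusted p = 0.0168 by edgeR). Mdm2 (1.95), which Rpl5 and Rpl11 bind, Myc (2.87), a driver of ribosome production, and the cell cycle inhibitor Cdkn1a (1.46) rose in CPB against sham, with adjusted p from 0.0021 to 0.0128 by edgeR. Mdm4 and Nop53 had log2 changes of 0.14 and 0.21 that did not pass.

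Nuclear genes for proteins of the mitochondria had negative medians, with calls near the background of 21.5% of all genes called lower. Of 76 mitochondrial ribosomal protein genes 19 were lower and 2 higher in CPB against sham, with a median log2 change of -0.30, and of 81 nuclear genes of oxidative phosphorylation, assembly factors included, 18 were lower and none higher, with a median of -0.31. Mrpl15 had -0.77 and Ndufs3 -0.76 (adjusted p = 0.00403 and 0.00346 by edgeR). In CPB+Nitrite against sham the medians of these families were -0.18 and -0.03, and in CPB+Nitrite against CPB 0.15 and 0.23. These comparisons share libraries. Relative to the sham mean, the mitochondrial ribosomal protein median was 0.12 in CPB+Nitrite 2, against -0.19, -0.14 and -0.43 in CPB+Nitrite 1, 3 and 4. For oxidative phosphorylation it was 0.30, against -0.11, -0.12 and -0.35. Both families thus had their highest CPB+Nitrite value in the library that stood apart by its markers, and their changes without it are not given. In CPB+Nitrite against CPB no gene of any list was called, and the medians of the elongation factors, eIF3 subunits and other initiation factors were -0.18, -0.19 and -0.30.

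**Figure D5:**
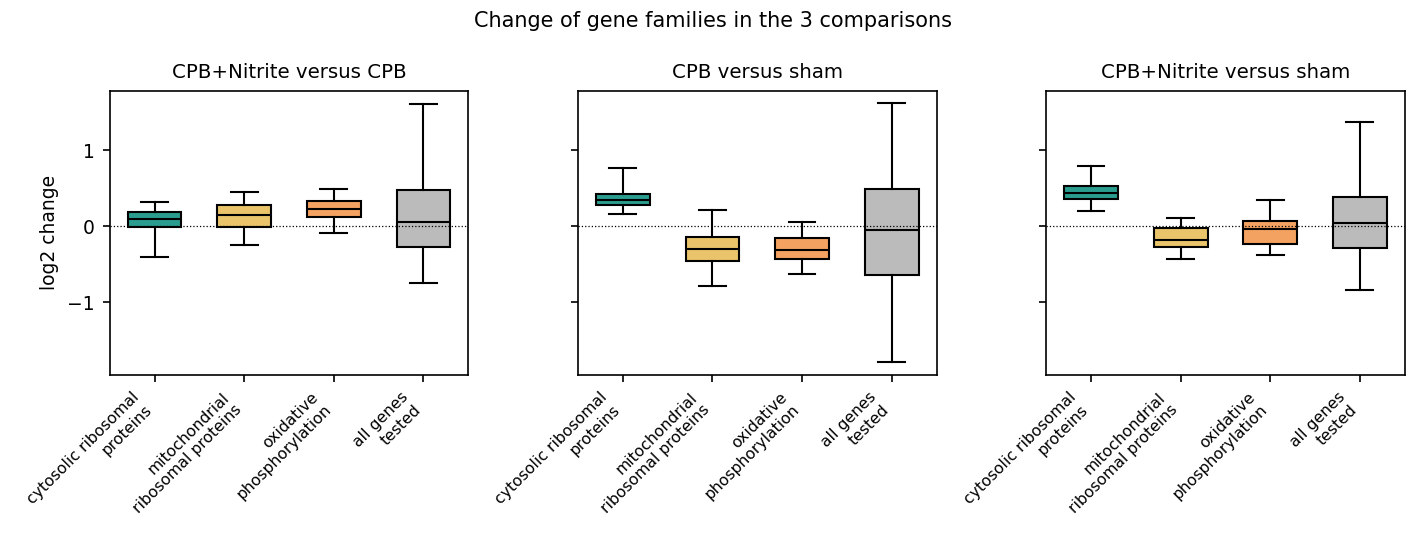
Log2 changes (vertical axis) of 97 cytosolic ribosomal protein genes, 76 mitochondrial ribosomal protein genes, 81 oxidative phosphorylation genes and all 14664 genes tested, in the 3 comparisons. Boxes give the quartiles and median, whiskers the 5 and 95 percentiles. In CPB against sham the cytosolic ribosomal proteins have a median of 0.35 and the 2 mitochondrial families medians of -0.30 and -0.31.

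The second comparison asks whether nitrite changed the response to bypass. In CPB+Nitrite against CPB kidneys no member was called by edgeR, and the background was 0% of all genes. At an unadjusted p under 0.05 there were 3 members, all lower with nitrite, where the background was 29.4% of all genes in either direction. DESeq2 and limma voom called no member, where they called 14.7% and 0.00682% of all genes. No member separated the 2 groups, against 6.44% of all genes that lay wholly higher and 6.27% wholly lower. The median log2 change was 0.10, against 0.05 for all genes. Of the 97 changes 70 were positive, against 54.1% of all genes. Without CPB+Nitrite 2 the median was -0.12, so this library sets the sign.

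The 3 members with an unadjusted p under 0.05 were Rpl22 on chromosome 5 (-0.49, SE 0.18, adjusted p = 0.106 by edgeR), Rpl7l1 (-0.46, SE 0.17, adjusted p = 0.11 by edgeR) and Rpl35a on chromosome 11 (-0.86, SE 0.36, adjusted p = 0.136 by edgeR). All 3 are among the members called in CPB against sham, a comparison that uses the same CPB libraries. Rpl7l1 averaged 118 ± 28.7 CPM in CPB+Nitrite and 163 ± 17.3 CPM in CPB (SD, n = 4 each), and CPB+Nitrite 1, at 152 CPM, lay above CPB 3. Without CPB+Nitrite 1 it was called (-0.64, adjusted p = 0.0239; over 21 alternatives the highest was 0.25), where 19.3% of all genes were called. Rps23 had a log2 change of 0.04 (SE 0.23), Rplp0 of -0.05 (SE 0.18) and Rps6 of -0.01 (SE 0.19), with adjusted p from 0.861 to 0.966 by edgeR.

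The third comparison sets CPB+Nitrite against sham. The members' median log2 change was 0.43, against 0.04 for all genes, and 93 of 97 changes were positive, against 52.9% of all genes. No member was called by edgeR, where the background was 4.81% of all genes in either direction and 3.85% higher, and the smallest adjusted p was 0.0559, for Rps23. At an unadjusted p under 0.05 there were 39 members, all higher, where 16.3% of all genes were higher at that threshold. DESeq2 called 6 members and limma voom 3, where they called 9.68% and 10.9% of all genes higher. Scaled by the authors' factors 2 members were called, where 4.81% of all genes were higher. Rpl9-ps31 and Rpl23a, a protein at the exit of the large subunit's tunnel, were the 2 members whose CPB+Nitrite libraries all lay above the sham libraries, against 5.64% of all genes.

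Both ends of the CPB+Nitrite group bear on these values. CPB+Nitrite 3 stood at the sham level (median of 0.01 over the members), and without it 27 members were called, where 10.9% of all genes were called higher. CPB+Nitrite 2 stood at 0.96, and without it the median change was 0.23. No member was called in that fit, where 1796 of all genes were called in either direction. Rps28, a small subunit protein at the mRNA exit, had 54.9, 101, 43.9 and 66.5 CPM in CPB+Nitrite and 45.8, 35.005, 39.2 and 32.7 CPM in sham libraries. CPB+Nitrite 3 lay below sham 1, and the log2 change was 0.80 (SE 0.23, adjusted p = 0.0595 by edgeR, and from 0.0103 to 0.157 over 21 alternatives). CPB+Nitrite 2 had both its high ribosomal protein levels and the unusual marker levels given above. The part of the cell types in its ribosomal protein levels was not tested.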

How the data were processed

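Per the labels' protocols, kidney RNA was isolated in QIAzol, cleared of DNA with TURBO DNase and sequenced from directional NEBNext Ultra II libraries. The submitters' processing notes name bcl2fastq 2.19, cutadapt 1.18, Salmon 1.2.1, R 3.5.1 and the genome build mRatBN7.2, and the step from transcripts to genes is not given in the sources used here. The deposited table holds the authors' estimated counts for 30208 genes, of which 33.1% of the non-zero values are not whole, and they were rounded for the tests. A further deposited table holds a normalized signal, whose values equal these counts times 1 factor per library (largest relative departure 0.0033), and served for gene names, coordinates and an alternative scaling.

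The test was edgeR 4.0.16's quasi-likelihood test (R 4.3.3) with TMM factors, a filter on low counts (filterByExpr, minimum count 10), no covariates and 1 fit of all 12 libraries with 9 residual degrees of freedom. Adjusted p is Benjamini-Hochberg over the 14664 genes tested, which hold 99.95% of reads, and called means an adjusted p below 0.05. CPM values were computed with the TMM factors, which ran from 0.887 to 1.11. The fit was also run on simulated data with changes planted in the CPB group and no outlying library. That run cannot show how CPB+Nitrite 2 or sham 4 affect the calls. Alternatives were other scalings, no filter and a stricter one, only the 2 groups compared, DESeq2 1.42.0, limma 3.58.1 voom, a replicate block, plain names only, leaving out each library, and, chosen after seeing the data, the summed entries of a protein.

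The members, lists and named genes were chosen with earlier results of these data known, so no test was made over a list. Named were members with the largest called changes (up to 8 in each direction) or, where fewer than 6 were called, the 10 with the smallest p, the paralog pairs, and a list of well-known members. A further part of this rule, the members with most reads per coding length, was not used, and levels are not compared between genes. Some genes of the lists are not reported here. Replicate numbers were not taken as pairs, and whether they pair the libraries is not known. Start-site sequences were read from RefSeq tables of build GRCr8, and gene coordinates are the authors' in mRatBN7.2.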

Additional observations from a re-analysis of the deposited data

Results flagged for a closer look

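Of 114 groups of 4 values checked, for 37 named members and for the share of reads, 4 held a library far from the other 3, where chance gives about 1 in 20. Rps28-ps1, an entry with a ps name, had 5.72 CPM in CPB+Nitrite 2 and 1.27 to 1.73 CPM in the other CPB+Nitrite libraries. The other 3 values were all in sham 4. Rpl22 on chromosome 4 had 49.9 CPM there and 66.8 to 70.1 CPM in the other sham libraries, Rpl11 had 158 CPM and 228 to 240.2 CPM, and Rpl13a had 445 CPM and 665 to 689.7 CPM. Rpl13a, a surface protein of the large subunit, had a log2 change of 0.35 in CPB against sham (adjusted p = 0.231 by edgeR).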

How the results depend on the processing

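In CPB against sham 9 members were called, and the count was 41 with only the 2 groups fitted, 33 with limma voom, 5 among plain names and 3 with the entries of a protein summed, an alternative added after seeing the data. Leaving out a library gave 5 (without sham 4) to 24 (without CPB+Nitrite 2) calls, all higher, and medians of 0.24 to 0.42. In CPB+Nitrite against sham no member was called by edgeR, and the count was 2 with the authors' factors, 6 with DESeq2, 3 with limma voom and 0 to 27 (without CPB+Nitrite 3) when leaving out a library, with medians of 0.23 to 0.54. In CPB+Nitrite against CPB the count was 0 to 1 and the median -0.12 (without CPB+Nitrite 2) to 0.22 when leaving out a library. Of the alternatives for single named members, 2267 left the call as it was, 42 gained a call and 13 lost it. The sign turned in 53 of them, 37 in CPB+Nitrite against CPB, 9 in CPB against sham and 7 in CPB+Nitrite against sham, none of them called before or after. The cause of these shifts was not tested. The mean share of reads without the 20 genes with most reads was 2.48% in CPB and 2.23% in sham.

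Same-numbered libraries of different groups deviated together with correlations of -0.107 to 0.381 over genes, and the numbers were not taken as pairs. In CPB against sham, however, the best-matching sham library of CPB 1, 3 and 4 was the same-numbered one, with correlations of 0.223, 0.139 and 0.0671. A pairing in that comparison is therefore not excluded. With a replicate block 8 members were called in CPB against sham and none in CPB+Nitrite against CPB or against sham, with medians of 0.37, 0.07 and 0.43. Of all genes 6229, 0 and 28 were called with the block, in the same order and in either direction.

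The filter on low counts left 31 members untested. In CPB against sham 7 of the 31 tested members with under 20000 reads and 2 of the 66 with more were called, where 21.7% of all genes were called higher. DESeq2's adjusted p is missing for genes it filters out, and these were not counted as lost calls.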
